A study of Mus musculus with 2 samples.

Results

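The microRNAs described here are 9 mature strands that are known to be induced by inflammatory signals: mmu-miR-155-5p, mmu-miR-146a-5p, mmu-miR-146b-5p, both strands of miR-21a, both strands of miR-132 and both strands of miR-212. They were taken by name from 2 deposited tables of mouse liver microRNAs, and all 9 were listed among the 484 microRNAs of experiment 1 and the 1915 of experiment 2. Each experiment held 1 library of pair-fed and 1 library of ethanol-fed liver. The labels list 1 sample per condition without stating which experiment they describe, and their protocol is taken here for both. As labelled, all mice were wild-type C57BL/6 females of 8 to 10 weeks. They were acclimatized to the control Lieber-DeCarli liquid diet for 5 days. The ethanol-fed group then had the diet with 5% (v/v) ethanol for 10 days and 6 g/kg ethanol by gavage on day 16, whereas the pair-fed group had an isocaloric control diet and a gavage of dextrin-maltose. Livers were taken 9 h after the gavage. The deposited design text speaks of 16 days on ethanol instead of 10. The number of animals behind a library is not given in the sources used here. As there was 1 library per condition in an experiment, the spread between animals is unknown. No test was run across the 2 tables, which were normalized separately. Each ratio of ethanol-fed to pair-fed below compares 2 libraries of 1 table. Some other ratios are taken within 1 library, and 1 level of mmu-miR-155-5p is set against a counting limit of the other experiment.

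MicroRNAs are short RNAs that guide Argonaute proteins to messenger RNAs, chiefly through the seed, the bases near the 5′ end. The genes of miR-155, miR-146a and miR-21 are known targets of NF-κB and of related factors in activated macrophages and other immune cells. In alcohol-fed animals, endotoxin from the gut is known to reach the liver and to act on its resident macrophages, the Kupffer cells, through Toll-like receptors. miR-155 is known to repress Socs1, an inhibitor of cytokine signalling, and so to favour inflammation. miR-146a and miR-146b repress Traf6 and Irak1, adaptors of Toll-like receptor signalling, and act as a brake. miR-21 represses Pdcd4 and is among the most abundant microRNAs of many tissues. miR-132 and miR-212 are made from the same primary transcript and respond to CREB.

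The mature sequences are shown because the shared seeds decide which members can be read as groups. All 9 names were matched in RefSeq (GRCm38.p6). Each sequence is written 5′ to 3′ with the seed, bases 2 to 8, in capitals.

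mmu-miR-155-5p: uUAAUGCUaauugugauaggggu

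mmu-miR-146a-5p: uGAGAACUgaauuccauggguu

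mmu-miR-146b-5p: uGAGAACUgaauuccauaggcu

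mmu-miR-21a-5p: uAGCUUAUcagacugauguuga

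mmu-miR-21a-3p: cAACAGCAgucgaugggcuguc

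mmu-miR-132-3p: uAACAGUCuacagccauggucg

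mmu-miR-212-3p: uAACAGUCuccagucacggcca

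mmu-miR-132-5p: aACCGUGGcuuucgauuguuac

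mmu-miR-212-5p: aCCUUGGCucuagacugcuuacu

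The 9 members have 7 different seeds. mmu-miR-146a-5p and mmu-miR-146b-5p have the same seed and differ only by G18A and U21C, with positions counted from 1 at the 5′ end and the base of miR-146a-5p first. Only reads that end within the 17 bases shared at the 5′ end fit both, whereas the study collected RNA of 18 nt or more. How any such reads were counted is not given in the sources used here. mmu-miR-132-3p and mmu-miR-212-3p have the same seed and differ at 5 positions, of which A10C is the nearest to the 5′ end. The hairpins of Mir212 (chr11:75173388-75173478, plus strand) and Mir132 (chr11:75173682-75173747, plus strand) lie 203 bases apart, both in an intron of the noncoding gene 1700016P03Rik in GENCODE vM21. Mir155 (chr16:84714140-84714204, plus strand) lies in an exon of its host transcript Mir155hg, and Mir21a (chr11:86584067-86584158, minus strand) lies in an exon and untranslated region of Vmp1. Mir146b (chr19:46342762-46342870, plus strand) lies in an intron of Mfsd13a, and Mir146 (chr11:43374397-43374461, minus strand), the gene of miR-146a, overlaps no other annotated gene. These are positions in GRCm38, whereas the submitters' processing notes name mm8.

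In experiment 1 the libraries held 4170601 (pair-fed) and 4311802 (ethanol-fed) reads on microRNAs. In experiment 2 the values were deposited as reads per 1000000 reads on microRNAs (RPM), from whose steps 10812820 and 10820821 reads were estimated. A count of 0 allows up to 0.719 and 0.696 RPM in the libraries of experiment 1. The 4 hepatocyte microRNAs of the marker list were found in every library, but miR-122-5p, the defining one, had 2971 and 2210 RPM in experiment 1 and 182938 and 156660 RPM in experiment 2. Levels of a microRNA in the 2 experiments come from tables made separately and are set side by side only as values. All 95% intervals are exact and cover counting error only. The log2 ratio sets ethanol-fed RPM over pair-fed RPM after 1 read was added to each library. It was computed where both libraries of a table together held 10 reads or more, and a microRNA was called when it was at least 2-fold higher or lower.

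The clearest pattern was that both miR-146 strands were lower in the ethanol-fed library of both experiments, by 1.28 to 1.75-fold. Their ratios were closest to those of white blood cell microRNAs, but the nearest had few reads in experiment 1, which left the order unresolved. mmu-miR-21a-5p, by far the most abundant member, differed by under 10% and in opposite directions. mmu-miR-155-5p was near the counting limit in experiment 1 and in experiment 2 its counting interval included no difference. The miR-132 and miR-212 strands did not exceed 19.3 RPM in any library. Of the 6 members with enough reads in experiment 1, 1 was at least 2-fold lower (mmu-miR-132-3p) and 0 were at least 2-fold higher, against 12.9% and 12.6% of all 302 microRNAs tested. In experiment 2, 0 of 9 members were 2-fold lower or higher, against 15.1% and 10.7% of all 469 tested. The median log2 ratio was -0.45 over the 6 members and -0.013 over all microRNAs in experiment 1, and 0.11 over the 9 members and 0.0026 over all in experiment 2. Both medians of the members turned sign with the minimum, to 0.11 with no minimum in experiment 1 and to -0.0054 at 100 reads in experiment 2.

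**Figure D1:**
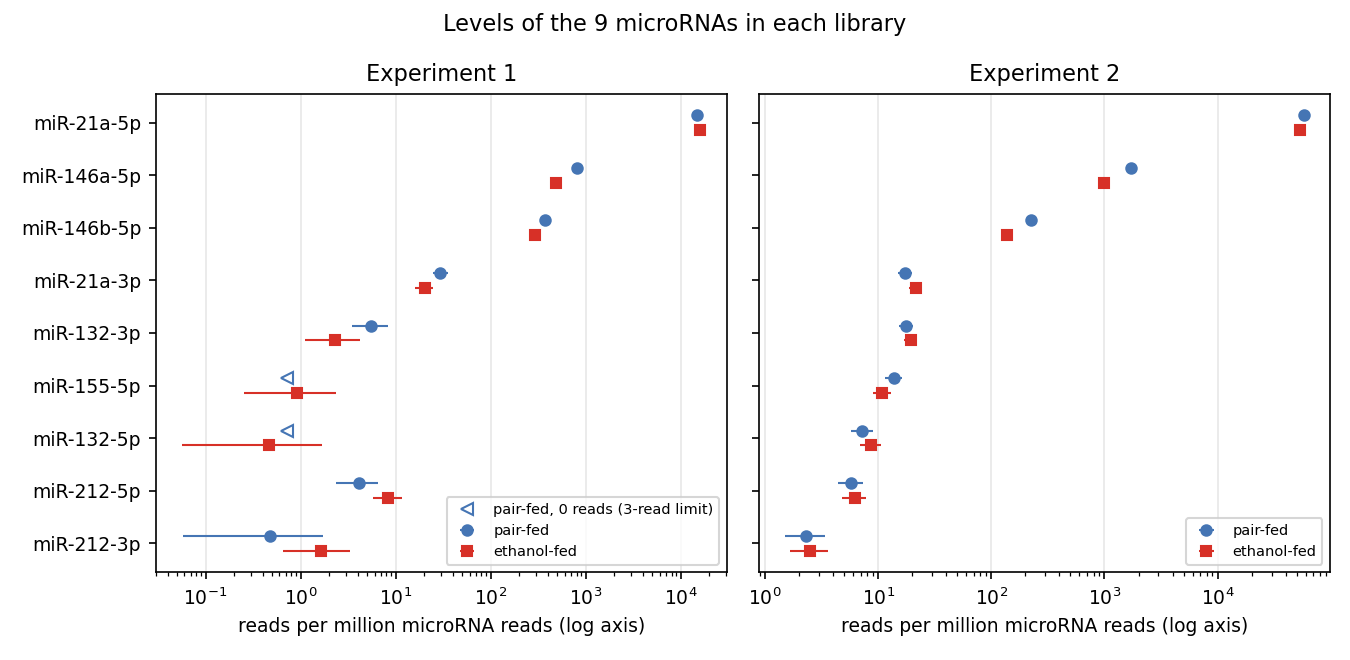
RPM on a log axis (horizontal) of the 9 microRNAs (vertical) in the pair-fed (circles) and ethanol-fed (squares) library of each experiment, with 95% exact counting intervals; open triangles mark a count of 0 at the limit of 3 reads. mmu-miR-21a-5p stands above 10000 RPM in all 4 libraries, and mmu-miR-146a-5p is lower in the ethanol-fed library in both panels.

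In the pair-fed library of experiment 1, mmu-miR-21a-5p was the highest member with 14828 RPM, followed by mmu-miR-146a-5p with 812, mmu-miR-146b-5p with 375 and mmu-miR-21a-3p with 29.5 RPM. mmu-miR-132-3p had 5.51, mmu-miR-212-5p 4.08 and mmu-miR-212-3p 0.480 RPM, and mmu-miR-155-5p and mmu-miR-132-5p were not detected. The intervals of mmu-miR-132-3p (3.50 to 8.27) and mmu-miR-212-5p (2.37 to 6.53) overlapped, as did those of the 3 lowest members, so their order was not resolved by counting. In the pair-fed library of experiment 2, mmu-miR-21a-5p had 57661, mmu-miR-146a-5p 1722 and mmu-miR-146b-5p 223 RPM. Next came mmu-miR-132-3p with 17.6, mmu-miR-21a-3p with 17.3 and mmu-miR-155-5p with 13.7 RPM, then mmu-miR-132-5p with 7.21, mmu-miR-212-5p with 5.73 and mmu-miR-212-3p with 2.31 RPM. The intervals of neighbours overlapped from mmu-miR-132-3p to mmu-miR-155-5p and between mmu-miR-132-5p and mmu-miR-212-5p. All members together made up 1.61% of the reads with pair-feeding and 1.69% with ethanol in experiment 1, and 5.97% and 5.43% in experiment 2. Mature strands are of nearly equal length, 22 or 23 nt here, so RPM was not corrected for length, but ligation during library preparation favours some ends over others, and levels of different microRNAs are therefore less comparable than 1 microRNA across libraries.

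mmu-miR-146a-5p had 3385 reads (812 RPM) with pair-feeding and 2120 reads (492 RPM) with ethanol in experiment 1. In experiment 2 it had 1722 RPM with pair-feeding and 987 RPM with ethanol. The ethanol-fed library was the lower one in both experiments, by 1.65-fold and 1.75-fold. The log2 ratios were -0.72 (95% interval -0.80 to -0.64) in experiment 1 and -0.80 (-0.84 to -0.77) in experiment 2. The difference is thus larger than counting error in both, although it did not reach 2-fold, and its size against the spread between animals is unknown. Its rank by level was the same in both pair-fed libraries, 41, and moved to 49 and 52 in the ethanol-fed libraries.

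mmu-miR-146b-5p, which has the same seed but comes from a gene on another chromosome, was also lower in both. Experiment 1 gave 375 RPM with pair-feeding and 292 RPM with ethanol, with a log2 ratio of -0.36 (-0.47 to -0.25). Experiment 2 gave 223 and 138 RPM, with a log2 ratio of -0.69 (-0.79 to -0.60). Summed over the shared seed, the pair-fed and ethanol-fed libraries had 1186 and 784 RPM in experiment 1, and 1946 and 1125 RPM in experiment 2. The makeup of this sum was unlike in the 2 experiments, since mmu-miR-146a-5p had 2.17 reads for each read of mmu-miR-146b-5p in the pair-fed library of experiment 1 and 7.71 in that of experiment 2. Within the ethanol-fed libraries these ratios were 1.68 and 7.15. The log2 change of the ratio was -0.37 (-0.50 to -0.23) in experiment 1 and -0.11 (-0.21 to -0.0088) in experiment 2, so that mmu-miR-146a-5p differed more between the libraries than its relative in both.

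**Figure D2:**
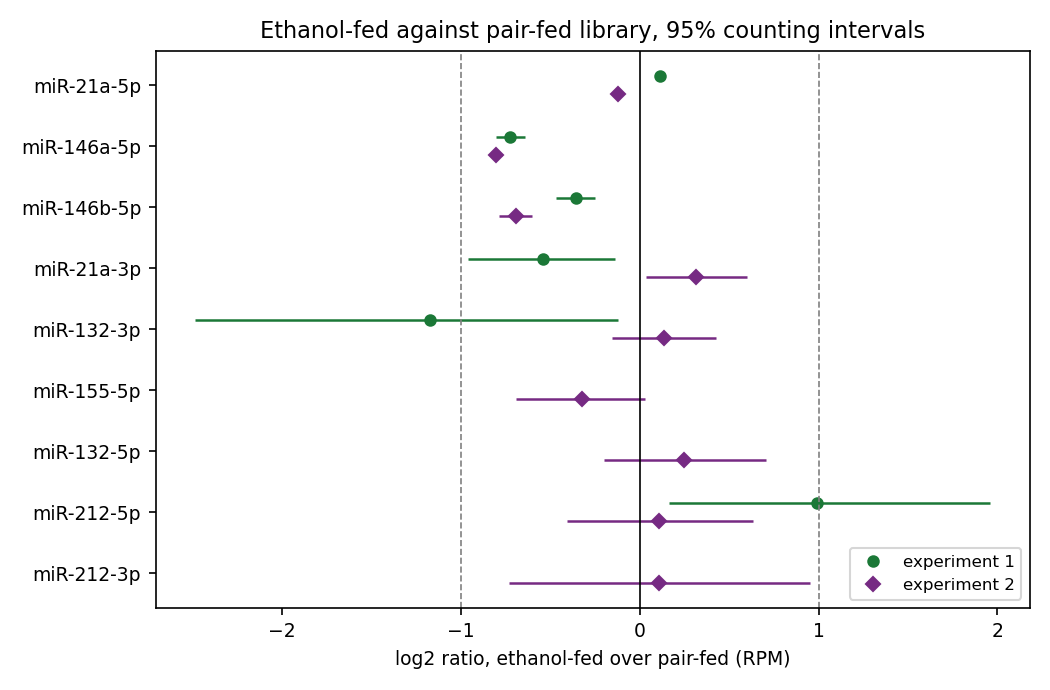
Log2 ratio, ethanol-fed RPM over pair-fed RPM (horizontal), for each member with at least 10 reads (vertical), in experiment 1 (circles, 6 members) and experiment 2 (diamonds, 9 members), with 95% exact counting intervals as lines; dashed lines mark 2-fold. The intervals of mmu-miR-146a-5p and mmu-miR-146b-5p lie below 0 in both experiments, while mmu-miR-21a-3p has intervals on opposite sides of 0.

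In all, 148 microRNAs had 100 reads or more in both tables, of which 24.3% were lower in the ethanol-fed library of both and 24.3% were higher in both. Of the 4 members among these, mmu-miR-146a-5p and mmu-miR-146b-5p were lower in both and 0 were higher in both. With 10 reads or more, 6 members were tested in both, of which 2 were lower in both and 1, mmu-miR-212-5p, was higher in both. Over all 283 microRNAs with 10 reads or more, 23.0% were lower in both and 24.7% were higher in both. Including the member itself, 3 of the 148 were at least as low as mmu-miR-146a-5p in both experiments (the others were miR-182-5p and miR-183-5p) and 9 were as low as mmu-miR-146b-5p. At the minimum of 10 reads these numbers were 11 and 20 of 283, and at 1000 reads 2 and 3 of 77.

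The microRNAs nearest to each member were those with the smallest distance between their pairs of log2 ratios, over 2 experiments and among 144 other microRNAs that passed the same minimum. For mmu-miR-146a-5p they were miR-223-3p (log2 ratios -0.64 and -0.77, distance 0.087) and miR-150-5p (-0.59 and -0.87, distance 0.15). For mmu-miR-146b-5p they were miR-223-5p (-0.35 and -0.74, distance 0.048) and miR-142a-5p (-0.18 and -0.92, distance 0.28). miR-223 is known for neutrophils and other myeloid cells, miR-150 for mature lymphocytes and miR-142 for all blood-forming cells. For mmu-miR-21a-5p the nearest were miR-1839-5p and miR-107-3p, with distances of 0.051 and 0.094, and for mmu-miR-21a-3p they were miR-30e-3p and miR-151-3p, with distances of 0.056 and 0.072. In experiment 1 miR-223-3p had only 76 and 50 reads, and miR-223-5p 57 and 46. The interval of the log2 ratio of miR-223-3p there was -1.20 to -0.12, wider than the distances given. The order of the nearest microRNAs was therefore not resolved by counting. A pattern of 2 values is short, and likeness here says only that the ratios were close.

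The white cell list was lower beside the miR-146 strands. It consists of miR-223-3p, miR-142a-3p, miR-142a-5p and miR-150-5p, and none of the 4 was at 0 in a library. All 4 were lower in the ethanol-fed library of both experiments, with log2 ratios from -0.64 to -0.18 in experiment 1 and from -0.94 to -0.77 in experiment 2. Their summed level was 404 RPM with pair-feeding and 335 RPM with ethanol in experiment 1, and 872 and 463 RPM in experiment 2. In bulk liver, fewer cells of a type and less of a microRNA per cell cannot be told apart, and the part of the white cells in the miR-146 values was not tested. Of the lists of other cells, the red cell one was higher with ethanol in experiment 1 and lower in experiment 2. Both endothelial microRNAs were higher with ethanol in both experiments. The 4 hepatocyte microRNAs summed to 392402 and 376642 RPM in experiment 1, and to 324136 and 291554 RPM in experiment 2. In each experiment 2 of these 4 were higher and 2 lower. The 4 red cell microRNAs summed to 11559 and 33915 RPM in experiment 1 but to 1826 and 1152 RPM in experiment 2, none of them at 0. The 2 endothelial microRNAs summed to 3854 and 5142 RPM in experiment 1 and to 22335 and 26332 RPM in experiment 2. The 4 of stellate cells and other mesenchyme summed to 96518 and 96073 RPM in experiment 1. In experiment 2 they summed to 18978 and 24067 RPM. Most of this was miR-143-3p, with 96276 and 95735 RPM in experiment 1 and 15722 and 20681 RPM in experiment 2. In experiment 1 the log2 ratio of miR-143-3p was -0.0081, while the other 3 were higher. These were miR-145a-5p (1.05), miR-199a-3p (0.37) and miR-214-3p (2.34, from 3 and 20 reads). In experiment 2, 2 of the 4 were higher and 2 lower. The 4 pancreas microRNAs summed to 5.92 and 113 RPM in experiment 2, and 1 of them was tested in experiment 1, with a log2 ratio of -0.84. The part of these cells in the members' values was not tested.

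Set against the white cell list within the same library, which needs no scaling, the miR-146 strands gave other values, and those of experiment 1 rested on 1 microRNA of the list. mmu-miR-146a-5p had 2.01 reads for each read of the list in the pair-fed library of experiment 1 and 1.97 in that of experiment 2. In the ethanol-fed libraries the values were 1.47 and 2.13. The log2 change was -0.45 (-0.58 to -0.32) in experiment 1 and 0.11 (0.052 to 0.17) in experiment 2. For mmu-miR-146b-5p the ratio went from 0.928 to 0.873 in experiment 1, a log2 change of -0.088 whose interval (-0.24 to 0.061) includes 0. In experiment 2 it went from 0.256 to 0.299, a log2 change of 0.22 (0.11 to 0.33). However, miR-142a-5p, with a ratio of -0.18, made up 76.4% of the list's pair-fed reads in experiment 1. Without it, an alternative chosen after seeing the data, the log2 change in experiment 1 was -0.13 (-0.37 to 0.12) for mmu-miR-146a-5p and 0.24 (-0.012 to 0.49) for mmu-miR-146b-5p, and both intervals include 0. In experiment 2 the values without it were 0.11 (0.016 to 0.20) and 0.22 (0.090 to 0.35).

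**Figure D3:**
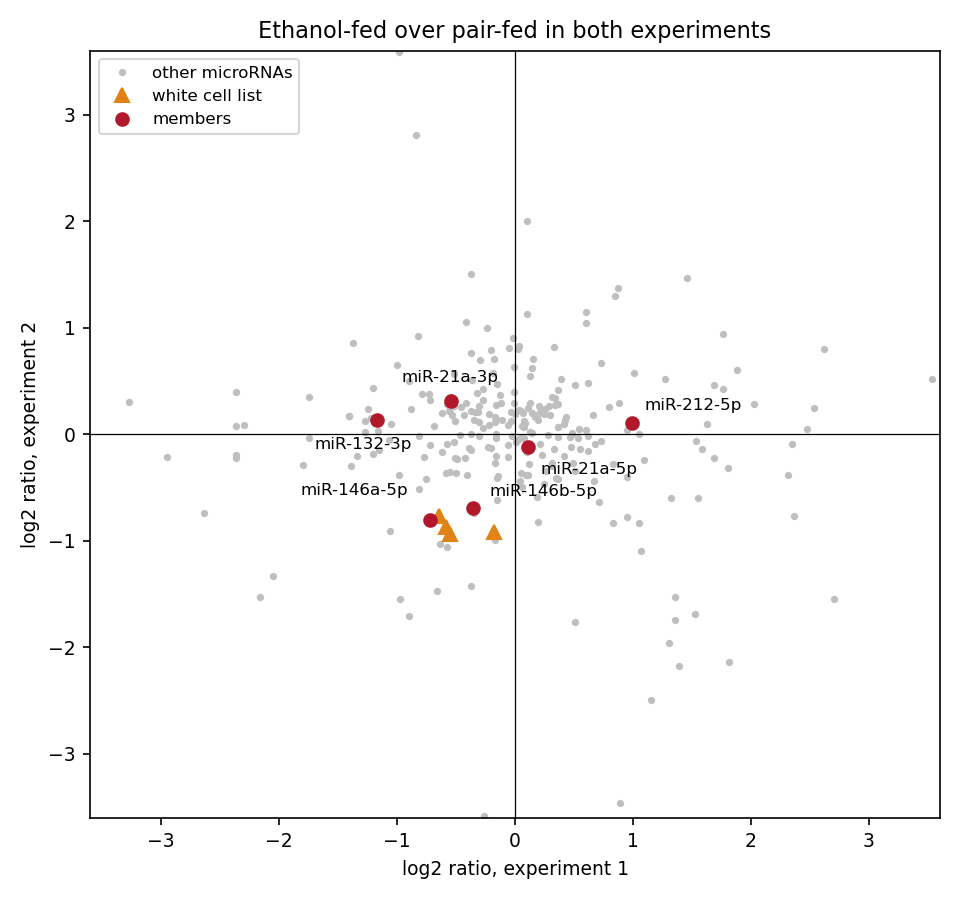
Log2 ratios in experiment 1 (horizontal) and experiment 2 (vertical), ethanol-fed over pair-fed, of the 283 microRNAs tested in both, 10 of which lie outside the axes; the 6 members tested in both are circles and the 4 microRNAs of the white cell list are triangles. mmu-miR-146a-5p, mmu-miR-146b-5p and the white cell list lie in the lower left quadrant, below 0 in both experiments.

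mmu-miR-155-5p was counted 0 times with pair-feeding and 4 times with ethanol in experiment 1. The ethanol-fed level is 1.29-fold the limit of 3 reads for a count of 0. The counting interval of the log2 ratio starts at -0.65 and has no upper end, so no difference was detectable at this depth. Its other strand, miR-155-3p, had 1 read with pair-feeding and 0 with ethanol. In experiment 2 mmu-miR-155-5p had 13.7 RPM with pair-feeding and 10.9 RPM with ethanol, about 148 and 118 reads. The log2 ratio of -0.33 had an interval of -0.69 to 0.031, which includes 0. The pair-fed level of experiment 2 is 19.0-fold the limit of 3 reads in the pair-fed library of experiment 1. This leaves out its own counting interval (11.6 to 16.1 RPM) and is given as a value only, since the tables were made separately. Relative to the white cell list, however, mmu-miR-155-5p was higher in the ethanol-fed library of experiment 2, at 0.0236 against 0.0157 reads for each read of the list, a log2 change of 0.59 (0.22 to 0.95). The white cell microRNAs were thus lower by more than mmu-miR-155-5p there.

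mmu-miR-21a-5p, the strand that is loaded into Argonaute from the miR-21 hairpin, had 14828 RPM with pair-feeding and 16038 RPM with ethanol in experiment 1. In experiment 2 it had 57661 and 53062 RPM. The difference from pair-feeding was 8.16% in experiment 1 and -7.98% in experiment 2. With 61843 to 623479 reads in a library, counting error was small, and the log2 ratios of 0.11 (0.097 to 0.13) and -0.12 (-0.13 to -0.11) lay on opposite sides of 0. It ranked between 5 and 10 by level in the 4 libraries. The relatives miR-21b and miR-21c first differ from it at bases 4 and 16. They had at most 142 and 81 reads in experiment 2 and were not listed in experiment 1.

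mmu-miR-21a-3p, the strand of the same hairpin that is mostly degraded, had 29.5 RPM with pair-feeding and 20.2 RPM with ethanol in experiment 1, a log2 ratio of -0.54 (-0.96 to -0.14). In experiment 2 it had 17.3 and 21.5 RPM, a log2 ratio of 0.31 (0.032 to 0.60). Both strands therefore differed in opposite directions in the 2 experiments, and each moved against the other within an experiment. Of the 148 microRNAs with 100 reads or more in both tables, 76 had opposite directions in the 2 experiments. The pair-fed library had 503 reads of the 5p strand for each read of the 3p strand in experiment 1 and 3334 in experiment 2. In the ethanol-fed libraries there were 795 and 2464. The log2 change of this arm ratio was 0.66 (0.25 to 1.07) in experiment 1 and -0.44 (-0.72 to -0.15) in experiment 2.

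mmu-miR-132-3p had 23 reads with pair-feeding and 10 with ethanol in experiment 1, a log2 ratio of -1.17 with a wide interval of -2.48 to -0.12. mmu-miR-212-5p, from the neighbouring hairpin of the same transcript, had 17 and 36 reads, a log2 ratio of 0.99 (0.16 to 1.96). These are the lowest and the highest ratios among the 6 members tested in that experiment. The number of reads of mmu-miR-212-5p for each read of mmu-miR-132-3p was 0.739 with pair-feeding and 3.6 with ethanol, a log2 change of 2.25 (0.80 to 3.81). In experiment 2, with more reads, this was not seen. mmu-miR-132-3p had 17.6 and 19.3 RPM and mmu-miR-212-5p 5.73 and 6.19 RPM, and the ratio was 0.326 with pair-feeding and 0.321 with ethanol, a log2 change of -0.026 (-0.63 to 0.58).

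The remaining strands of these hairpins were rare. mmu-miR-132-5p had 0 and 2 reads in experiment 1, and 7.21 and 8.59 RPM in experiment 2, a log2 ratio of 0.25 (-0.20 to 0.71). mmu-miR-212-3p had 2 reads with pair-feeding and 7 with ethanol in experiment 1, a ratio of 3.39 with an interval of the log2 ratio from -0.63 to 5.06. In experiment 2 it had 2.31 and 2.50 RPM, a log2 ratio of 0.11 (-0.73 to 0.96). The counting intervals of all 4 miR-132 and miR-212 strands in experiment 2 included 0. The favoured strand was the 3p strand of miR-132 and the 5p strand of miR-212. In the pair-fed library of experiment 2 there were 0.411 reads of mmu-miR-132-5p for each of mmu-miR-132-3p, but 2.48 reads of mmu-miR-212-5p for each of mmu-miR-212-3p, and the ethanol-fed library gave 0.445 and 2.48. The direction was the same in experiment 1, where mmu-miR-212-5p had 8.50 and 5.14 reads for each read of its partner. Summed over the shared seed of mmu-miR-132-3p and mmu-miR-212-3p, there were 25 and 17 reads in experiment 1, and 19.9 and 21.8 RPM in experiment 2.

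**Figure D4:**
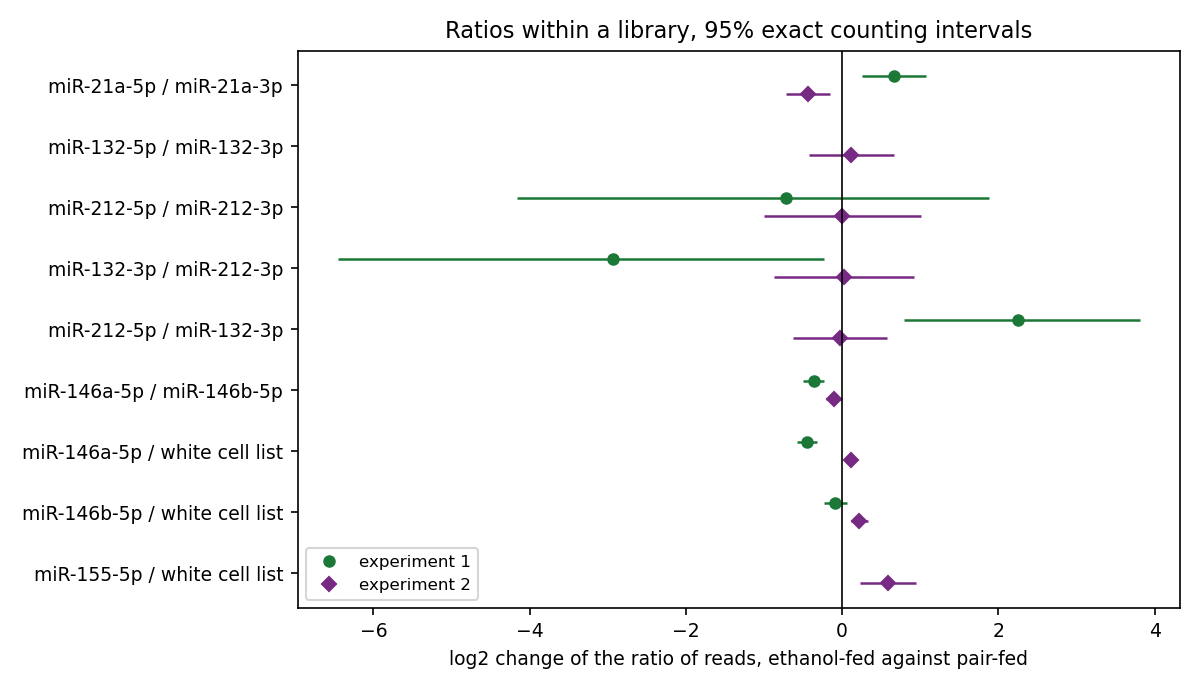
Log2 change, ethanol-fed against pair-fed, of the ratio of reads of 2 microRNAs, or of a microRNA and the white cell list, within a library (horizontal), in experiment 1 (circles) and experiment 2 (diamonds), with 95% exact counting intervals; ratios without a finite interval are left out. The miR-21a arm ratio lies on opposite sides of 0 in the 2 experiments, and the ratio of mmu-miR-212-5p to mmu-miR-132-3p is above 0 in experiment 1 and near 0 in experiment 2.

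A list of 20 other microRNAs linked to Toll-like receptor and NF-κB signalling, such as miR-125b, miR-181 and miR-9, served as a wider view of the pathway. In experiment 1, 19 were tested, of which 1 was at least 2-fold higher in the ethanol-fed library and 0 were 2-fold lower (12.6% and 12.9% over all microRNAs), and their median log2 ratio was -0.059. The 1 was miR-187-3p with 5 and 14 reads, named after its values were seen. In experiment 2, 19 were tested, of which 1 was 2-fold higher and 0 were lower (10.7% and 15.1% over all), with a median of 0.27. The 1 was miR-9-5p, with 2.96 RPM with pair-feeding and 6.65 RPM with ethanol. In all, 8 of the list were higher and 11 lower in experiment 1, and 13 were higher and 6 lower in experiment 2. Over all microRNAs, 147 were higher and 155 lower in experiment 1, and 236 and 233 in experiment 2.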

How the data were processed

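Small RNA libraries were made from total liver RNA and sequenced by the authors. How reads were aligned, annotated and filtered is not given in the sources used here, and the submitters' processing notes name the build mm8. For experiment 1 the authors deposited counts of reads per mature microRNA, not normalized. For experiment 2 the authors deposited RPM, with 2 repeated columns that were identical and not used, and with their own log2 fold change and p-value, which were not used either. The RPM were whole multiples of 1 step, within 0.0595 reads, for 97.0% (pair-fed) and 96.6% (ethanol-fed) of the values under 60 RPM. The lowest value above 0 was 10 steps, so values under 10 reads appear as 0. Reads were estimated from the step.

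Columns were assigned to the conditions by name. Ratios were taken within a table after a pseudocount of 1 read. Intervals were exact binomial intervals (levels), exact conditional binomial intervals without pseudocount (ratios) and Fisher's exact conditional intervals (ratios of ratios). Reads without molecular identifiers are not independent molecules. Without replicates, no p-value was computed. The members and lists were chosen with earlier results of these data known. Named were the members, the 2 nearest microRNAs of each member with at least 100 reads in each table, and members of the signalling list at least 2-fold changed with at least 100 reads. The alternatives were 2 other scalings, unscaled reads (experiment 1), a pseudocount of 0.1 read, no minimum, a minimum of 100 reads, and, in experiment 2, the lowest listed value in place of 0. The white cell list without each of its microRNAs in turn was added after the data had been seen. Calls, intervals and the step were tested on simulated data. The simulated counts held counting error only, the error the intervals assume, and so do not cover the spread between animals. The software was scipy 1.17.1, matplotlib 3.10.9, pandas 2.3.3 and numpy 2.4.6 under Python 3.11.15.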

Additional observations from a re-analysis of the deposited data

Results flagged for a closer look

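Both strands of miR-21a had ratios on opposite sides of 0 in the 2 experiments, each with a counting interval clear of 0. Opposite directions were common over all microRNAs, with 148 of 283 at 10 reads or more in both tables and 76 of 148 at 100 reads or more. How many of those had intervals clear of 0 was not counted. The log2 ratio of mmu-miR-21a-5p was 0.11 in experiment 1 and -0.12 in experiment 2, and that of mmu-miR-21a-3p was -0.54 in experiment 1 and 0.31 in experiment 2. The difference between the experiments was not tested, since each holds 1 library per condition.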

How the results depend on the processing

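The number of members at least 2-fold higher or lower in experiment 1 was 1, and it was 2 with median-of-ratios size factors, with unscaled reads and with a pseudocount of 0.1 read, as mmu-miR-212-5p then passed 2-fold. It was 4 with no minimum, where 3 members with under 10 reads entered, and 0 with a minimum of 100 reads, where mmu-miR-132-3p was left out. With no minimum, the median log2 ratio of the members of experiment 1 was 0.11 instead of -0.45. That of experiment 2 was -0.0054 at 100 reads instead of 0.11. In experiment 2 the number was 0 under all alternatives run. Of 87 log2 ratios of single members under the alternatives, 83 stayed within counting error and 4 moved beyond it, all of them of mmu-miR-21a-5p, and 0 changed sign. The ratio of mmu-miR-146a-5p ranged from -0.76 to -0.67 in experiment 1 and from -0.82 to -0.80 in experiment 2. The scalings shifted the median of all microRNAs by at most 0.048. No paired analysis was possible because the labels give 1 sample per condition and so no shared replicate numbers beyond 1, and the 2 tables, in different units and normalized separately, were not joined in a test. Over all microRNAs of experiment 1, 38 were called higher and 39 lower, against 99 and 102 with no minimum and 10 and 9 at 100 reads. Over those of experiment 2, 50 and 71 were called, against 12 and 24 at 100 reads and 22 and 49 with the lowest listed value in place of 0. With so few reads, the miR-132, miR-212 and miR-155 strands of experiment 1 limit any comparison.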

Other observations

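The study examined the 3′ UTR of Sirt1, a deacetylase that controls lipid metabolism in the liver. Bases complementary to the seeds of the members were sought on the sense strand of this 3′ UTR (transcript ENSMUST00000120239.7 in GENCODE vM21, 1631 nt after the stop codon), as the reverse complement of bases 2 to 8. GACTGTT, the match of the seed shared by mmu-miR-132-3p and mmu-miR-212-3p, was found once, at bases 1450 to 1456, in the stretch tatttttacagtgaaGACTGTTttc, with the match in capitals. Of the 6874 genes whose longest annotated 3′ UTR is at least as long, 12.3% held it within the same length. TGCTGTT, the match of mmu-miR-21a-3p, was found once, at bases 860 to 866, in the stretch tgtaatattttggacTGCTGTTttt, and 23.0% of the 3′ UTRs held it. The matches of the other members, AGCATTA (mmu-miR-155-5p), AGTTCTC (mmu-miR-146a-5p and mmu-miR-146b-5p), ATAAGCT (mmu-miR-21a-5p), CCACGGT (mmu-miR-132-5p) and GCCAAGG (mmu-miR-212-5p), were not in this window. A match is a description of letters and not a site.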
